A study of Mus musculus with 12 samples.

Results

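The genes described here are 28 members of the cholesterol pathway, chosen by mouse gene symbol and found by their Entrez IDs among the 27179 genes of the deposited table. They comprise 18 enzymes of synthesis, 5 genes of the sterol-sensing system (Srebf1, Srebf2, Scap, Insig1 and Insig2), 3 genes of transport within the cell (Stard4, Npc1 and Npc2) and 2 exporters (Abca1 and Abcg1). Uptake is covered from the endosome onward, by Npc1 and Npc2. RNA was sequenced in mIMCD3 cells, an established mouse line that comes from the kidney's inner medullary collecting duct. Every group had 48 h of growth in 10% fetal calf serum and was then kept without serum, the source of lipoproteins in culture medium, for 24 h. The 4 groups of 3 libraries were a wild type control line, an Actr3 knockout line (Actr3 KO), a line in which Ift88 was knocked out as well as Actr3 (dKO), and the same Actr3 KO line with 0.5 µM ciliobrevin D, which inhibits the motor protein dynein, added during starvation, where other cells had solvent. Actr3 encodes the ARP3 subunit of the actin-nucleating Arp2/3 complex, and Ift88 a protein of the transport system that builds cilia. Each genotype is 1 line in the sample titles, so a line and its genotype cannot be told apart. The name of 1 control column may stand for another control line. Whether libraries of a group are separate cultures is not stated, and the p-values cover the spread between these libraries alone.

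Animal cells build cholesterol from acetyl-CoA through mevalonate, isoprenoid units, squalene and lanosterol, and the membrane protein SCAP carries the SREBP transcription factors to the Golgi for activation when the endoplasmic reticulum is short of sterol. INSIG proteins hold SCAP back when sterol is plentiful, and active SREBP-2, the product of Srebf2, binds sterol regulatory elements in the promoters of the synthesis genes and of Insig1. Cells also receive cholesterol from lipoproteins through the lysosomal proteins NPC1 and NPC2, and release it through the LXR-driven exporters ABCA1 and ABCG1.

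Promoter windows from RefSeq (GRCm38.p6) were matched by symbol for 22 of the 28 members, as 30 windows, since some genes have several annotated starts, and each runs from 250 bases before a start to 50 bases after it. A gene was counted as holding a motif where any of its windows held it. The letters CACNCCAC, the core of a sterol regulatory element, were searched on both strands, where N is any base. They stood in 3 of the 22 genes (13.6%), against 7.12% of all genes with a window and 7.77% of the genes tested below. The 250 bases before the start are shown for these 3 genes, which have 1 window each, because they carry this letter pattern. Their RNAs fell in Actr3 KO, and so did those of Idi1 and Cyp51, whose windows held no match. The capitals mark CACNCCAC or its reverse complement, and all 3 are written 5′ to 3′ on the strand of the gene. Insig1 lies on the plus strand and its sequence covers chr5:28071162-28071411. Hmgcs1 lies on the plus strand with chr13:119690101-119690350, and Acat2 on the minus strand with chr17:12960726-12960975.
Insig1: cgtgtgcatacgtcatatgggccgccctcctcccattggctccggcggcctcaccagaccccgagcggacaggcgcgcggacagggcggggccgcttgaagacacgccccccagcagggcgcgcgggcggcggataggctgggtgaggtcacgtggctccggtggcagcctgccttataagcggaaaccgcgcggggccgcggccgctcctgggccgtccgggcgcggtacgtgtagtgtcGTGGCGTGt
Hmgcs1: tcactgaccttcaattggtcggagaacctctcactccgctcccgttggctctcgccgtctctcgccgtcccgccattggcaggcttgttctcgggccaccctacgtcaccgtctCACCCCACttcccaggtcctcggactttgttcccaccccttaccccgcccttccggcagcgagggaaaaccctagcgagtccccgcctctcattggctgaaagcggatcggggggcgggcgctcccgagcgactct
Acat2: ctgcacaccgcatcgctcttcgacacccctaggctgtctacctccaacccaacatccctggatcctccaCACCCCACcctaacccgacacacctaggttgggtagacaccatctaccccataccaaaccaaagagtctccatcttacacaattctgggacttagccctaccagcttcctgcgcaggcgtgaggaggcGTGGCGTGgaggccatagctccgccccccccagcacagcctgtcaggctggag

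In Insig1 the match began 9 bases before the start, and its letters read on the strand opposite to the gene. Hmgcs1 held 1 match 136 bases before the start on the strand of the gene, and this was also the only member match to the longer TCACNCCAC, which contains the core (1.44% of all genes with a window). Acat2 held 2 matches, 181 bases before the start on the strand of the gene and 53 bases before it on the opposite strand. The CCAAT letters, the box bound by NF-Y, stood in 19 of the 22 genes (86.4%), against 41.1% of all genes and 42.9% of tested genes. The GGGCGG letters, an Sp1 box, stood in 21 of the 22 (95.5%), against 38.2% and 68.4%. These are counts of letters in 300-base windows and no measure of binding, and a window without a match says only that the letters are not in it.

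Values are the authors' normalized counts, in which the reads of a gene were divided by a size factor of the library. Libraries held 28902562 to 38077987 recovered reads. Control values are listed for replicate 1, replicate 3 and a control column that matches no sample title and whose name may stand for another control line, and the others for replicates 1, 2 and 3. Without that library no member's call in Actr3 KO against control changed, and the 2 calls that did change elsewhere, for Ebp and Insig1, are given with those genes. Actr3, the edited gene, was at 8336 ± 293 (mean ± SD, n = 3) in control and 1218 ± 111 in Actr3 KO, and at 871 ± 38.6 in dKO and 1574 ± 180.2 under ciliobrevin D. Ift88 was at 457 ± 14.9, 617 ± 34.2, 604 ± 29.8 and 438 ± 4.29, so its RNA level is no check of the Ift88 edit. The summed level of 17 markers of collecting duct and kidney epithelium was 97883 to 106342 for control, 53734 to 58259 for Actr3 KO, 61715 to 66562 for dKO and 64717 to 68195 for ciliobrevin D. Epcam, Cdh1, Krt8 and Krt18 were among the abundant ones, while Aqp2, the vasopressin-regulated water channel that defines principal cells, was at or near 0 in every group. The summed level of 19 markers of other cell types was 13606 to 16239, 18832 to 21930.2, 8752 to 10102 and 13253 to 13990.3 in the same order, most of it Lrp2 and Csf1r, while Col1a2 and Slc34a1 were at 0 and Adgre1 and Lyz2 at or near 0 in all libraries. Both sums moved between the groups, and their part in the results below was not tested. In RNA from whole cultures, fewer cells of a kind and less RNA per cell cannot be told apart.

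The control cells spanned a wide range of levels within the pathway. Per kilobase of merged exon (GENCODE vM21), Insig1, the feedback retention protein, was highest at 4578 normalized counts per kilobase, followed by the lanosterol demethylase Cyp51 at 4093, Fdps at 3828, Srebf2 at 3625 and Hmgcs1 at 3577. The lowest apart from the exporters were the sterol reductase Tm7sf2 at 250.5 and the lysosomal transporter Npc1 at 272 per kilobase. In Actr3 KO the first place on this scale went to Srebf2 at 3966 and the second to Srebf1 at 3316, with Cyp51 at rank 7 with 1753. In dKO, Insig1 was again first at 3351 per kilobase, and with ciliobrevin D it was Srebf2 at 4135, with Insig1 next at 3986. These per-length levels are a description, since they depend on which exons the transcripts of a gene use.

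Every enzyme of synthesis was lower in Actr3 KO than in control. Genes were compared as log2(normalized count + 1) with limma, and a gene counts as called where its p, adjusted by Benjamini-Hochberg over 13939 tested genes, was under 0.05. All 18 enzymes fell, with log2 fold changes from -1.45 to -0.21 and a median of -0.61. No Actr3 KO library overlapped a control library for any of them, but the share of all tested genes without overlap was not counted. None of the 18 changed sign in any alternative tried, and Sqle, Dhcr7 and Ebp missed the threshold in 1 alternative each, given with those genes. Over all members tested, 21 of 27 were lower and 5 higher, where 35.4% of all tested genes were called lower and 34.4% higher. The median of the 27 members was -0.55, beside 0.005 over all tested genes. The 5 higher members were Srebf1, Scap, Npc1, Npc2 and Abcg1, and Srebf2 was not called. Abcg1 passed the filter on low values only through the groups where it was higher, so its place in that count was given by the filter, and Abca1 was too low to be tested. With the median of each chromosome removed, Scap and Npc2 missed the threshold and the count of higher members was 3.

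Summed over the 18 enzymes, the level was 108538 ± 5534 normalized counts in control (mean ± SD, n = 3) and 67414 ± 3479.6 in Actr3 KO, which is 62.1% of control. It was 72771 ± 4951 in dKO, 67% of control, and 60857 ± 4195 with ciliobrevin D, 56.1% of control. Library by library, the median log2 difference of the 18 enzymes from the control mean was -0.69, -0.57 and -0.65 in Actr3 KO, -0.54, -0.48 and -0.66 in dKO, and -0.82, -0.71 and -0.91 with ciliobrevin D. The control libraries themselves lay at 0.07, -0.06 and 0.002. All 9 edited libraries thus sat below all 3 control libraries on this measure, while dKO and Actr3 KO overlapped.

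**Figure D1:**
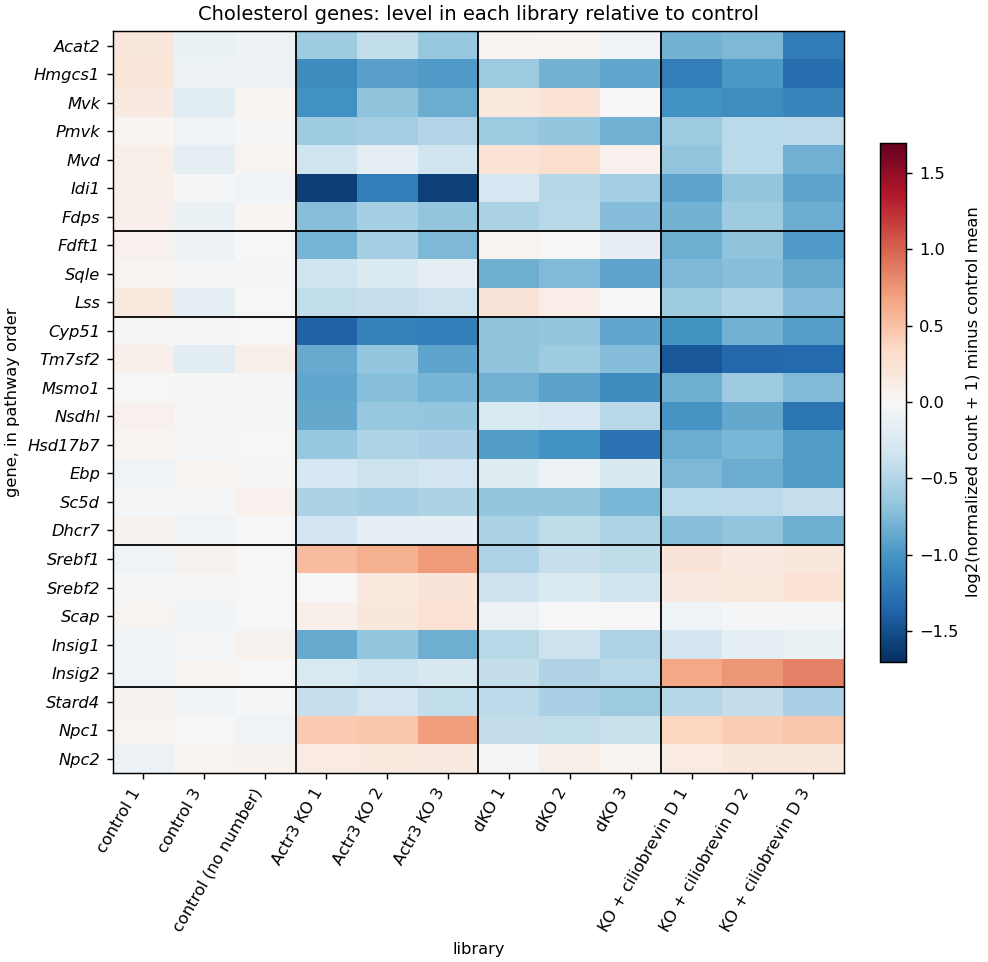
Level of 26 cholesterol genes (rows, in pathway order: acetyl-CoA to farnesyl diphosphate, squalene to lanosterol, lanosterol to cholesterol, sterol sensing, transport) in 12 libraries (columns), as log2(normalized count + 1) minus the mean of the control libraries, blue for lower and red for higher. The 18 synthesis enzymes at the top are blue in all 3 Actr3 KO libraries, while Srebf1 and Npc1 are red there and blue in dKO.

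The line with the Ift88 edit as well differed from Actr3 KO in both directions. In dKO against Actr3 KO, 10 of 27 tested members were higher, against 32.5% of all tested genes, and 10 were lower, against 33.2%. Their median was -0.09, beside -0.01 over all genes. The shares called were thus near those of the whole table. By role, 9 of the 18 enzymes were higher and 4 lower, and of the 5 sterol-sensing genes 1 was higher and 4 were lower. Idi1, Mvk, Fdft1, Acat2, Lss, Cyp51, Mvd, Nsdhl, Hmgcs1 and Insig1 were the 10 higher, and Srebf1, Npc1, Sqle and Hsd17b7 fell furthest as fitted. This comparison and the first share the Actr3 KO libraries, so opposite signs in both are not independent measurements.

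With ciliobrevin D in the Actr3 KO line, more members fell than rose. Against untreated Actr3 KO, 4 of 27 tested members were higher, beside 32.7% of all tested genes, and 12 were lower, beside 32.9%. With quantile normalization these counts were 3 and 18. The median of the members was -0.16 and that of all genes -0.01. The 4 higher were Insig2, Idi1, Insig1 and Cyp51, which comprise both INSIG genes. Insig1 and Cyp51 lie on chromosome 5, whose tested genes had a median of 0.22 in this comparison. With chromosome medians removed, Insig1 was at 0.36 (adjusted p = 2.88e-05) and Cyp51 missed the threshold, at 0.09 (adjusted p = 0.244). Of the enzymes, 10 of 18 fell, with Tm7sf2, Sqle, Dhcr7 and Ebp the furthest, and of the transport genes none was called. The 3 transport genes had log2 fold changes of -0.10 for Stard4, -0.12 for Npc1 and 0.02 for Npc2.

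**Figure D2:**
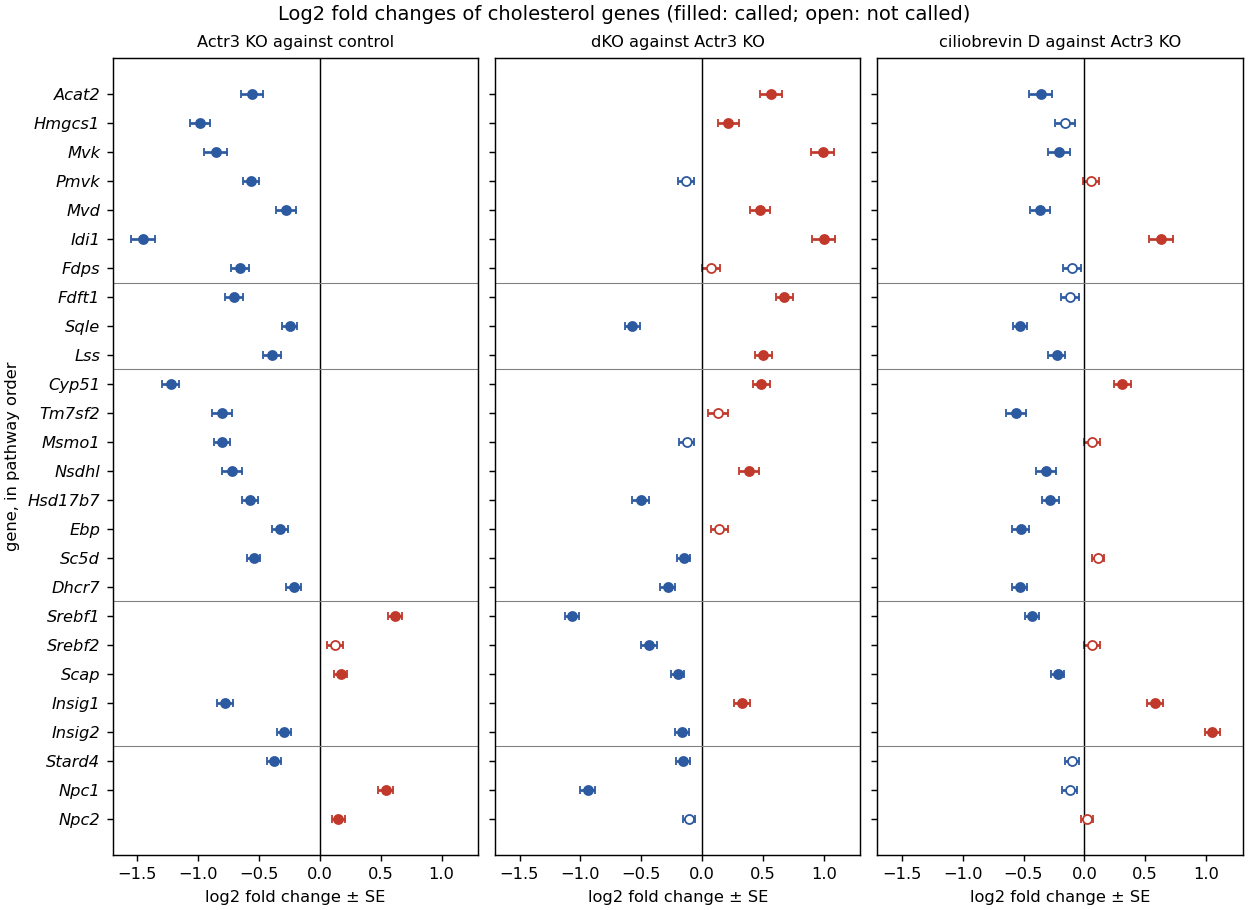
Log2 fold change with its standard error for 26 cholesterol genes in pathway order, in Actr3 KO against control (left), dKO against Actr3 KO (middle) and ciliobrevin D against untreated Actr3 KO (right), with filled points for genes called by limma and open points for genes not called. All 18 enzymes lie left of 0 in the first panel, while in the second 9 of them are called to the right and 4 to the left.

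The first 7 enzymes lead from acetyl-CoA to farnesyl diphosphate, the last intermediate shared with the other isoprenoids. Idi1, the isomerase that makes the allylic unit of isoprenoid chains, was at 1849, 1706 and 1694 normalized counts in the control libraries, 576, 775 and 583 in Actr3 KO, 1429.5, 1248 and 1167 in dKO and 939, 1096 and 939.6 under ciliobrevin D. The 4 groups did not overlap in any pair, with control highest, then dKO, then ciliobrevin D, and Actr3 KO lowest. Its log2 fold change was -1.45 ± 0.10 (SE, limma adjusted p = 2.6e-11) in Actr3 KO against control, the lowest of all members, 1.00 ± 0.10 (SE, adjusted p = 9.66e-09) in dKO against Actr3 KO, and 0.63 ± 0.10 (SE, adjusted p = 7.08e-06) with ciliobrevin D against Actr3 KO. Against control it remained at -0.45 ± 0.10 (SE, adjusted p = 0.000299) in dKO and -0.82 ± 0.10 (SE, adjusted p = 2.14e-07) with ciliobrevin D.

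Hmgcs1, the cytosolic synthase that commits acetyl-CoA units to mevalonate and 1 of the 3 genes whose promoter is printed above, was at 18826, 15216 and 15255 normalized counts in the control libraries, 7764, 8643 and 8418 in Actr3 KO, 10629.5, 9357 and 8874 in dKO and 7236, 8339 and 6716 under ciliobrevin D. All edited libraries were below all control libraries, and dKO was only slightly above Actr3 KO. The log2 fold changes were -0.98 ± 0.09 (SE, limma adjusted p = 1.63e-09) in Actr3 KO against control, 0.21 ± 0.09 (SE, adjusted p = 0.0318) in dKO against Actr3 KO and -0.16 ± 0.09 (SE, adjusted p = 0.105) with ciliobrevin D. The dKO difference missed the threshold without Actr3 KO replicate 1, at 0.17 (adjusted p = 0.13), without dKO replicate 1, at 0.14 (adjusted p = 0.188), with no filter on low values, at 0.21 (adjusted p = 0.0687), and with chromosome medians removed, at 0.08 (adjusted p = 0.4). The ciliobrevin D difference passed it without ciliobrevin D replicate 2, at -0.25 (adjusted p = 0.0221), and with quantile normalization, at -0.35 (adjusted p = 0.00102).

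Mvk, mevalonate kinase, was at 1249.5, 979.9 and 1145 normalized counts in the control libraries, 546, 694 and 621 in Actr3 KO, 1263, 1315 and 1112 in dKO and 549.9, 539.5 and 513 under ciliobrevin D. Control and dKO overlapped at the high end, and Actr3 KO and ciliobrevin D at the low end. It fell in Actr3 KO, with a log2 fold change of -0.86 ± 0.09 (SE, limma adjusted p = 3.69e-08), and was higher in dKO than in Actr3 KO by 0.99 ± 0.09 (SE, adjusted p = 4.8e-09). Ciliobrevin D against Actr3 KO gave -0.21 ± 0.09 (SE, adjusted p = 0.0489), a call that was lost in several settings, with -0.13 (adjusted p = 0.267) without Actr3 KO replicate 2, -0.20 (adjusted p = 0.0937) without Actr3 KO replicate 3 and -0.18 (adjusted p = 0.118) without ciliobrevin D replicate 3. It was lost too without ciliobrevin D replicate 1, at -0.23 (adjusted p = 0.0501), and replicate 2, at -0.22 (adjusted p = 0.0802). Mvk lies on chromosome 5, whose 871 tested genes had a median of 0.39 in dKO against Actr3 KO and -0.24 in Actr3 KO against control, and with chromosome medians removed its difference was 0.57 (adjusted p = 9.35e-06).

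Mvd, which decarboxylates mevalonate diphosphate to isopentenyl diphosphate, was at 2213, 1859.7 and 2138 normalized counts in the control libraries, 1639, 1845 and 1633 in Actr3 KO, 2416, 2537 and 2168 in dKO and 1301, 1507 and 1174 under ciliobrevin D. The dKO libraries were all above those of Actr3 KO and the ciliobrevin D libraries all below. The differences were -0.28 ± 0.08 (SE, limma adjusted p = 0.00562) in Actr3 KO against control, 0.48 ± 0.08 (SE, adjusted p = 3.69e-05) in dKO against Actr3 KO and -0.37 ± 0.08 (SE, adjusted p = 0.000616) with ciliobrevin D. Acat2, the cytosolic acetoacetyl-CoA thiolase that feeds the pathway and whose promoter is printed above, had means of 3021 ± 373 for control, 2048 ± 182 for Actr3 KO, 3025 ± 116 for dKO and 1605 ± 249 for ciliobrevin D (± SD, n = 3). It fell by 0.56 in Actr3 KO on the log2 scale, and the treated cells stood at a log2 fold change of -0.36 against Actr3 KO (adjusted p = 0.00201), while in dKO it was 0.57 above Actr3 KO (adjusted p = 1.83e-05). Acat2 in dKO lay within the range of control.

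Pmvk, which adds the next phosphate after Mvk, had means of 1543 ± 52.4 for control, 1045 ± 43.1 for Actr3 KO, 953 ± 68.9 for dKO and 1087 ± 70.0 for ciliobrevin D. Fdps, the synthase of farnesyl diphosphate, had means of 16108 ± 1096 for control, 10224 ± 574 for Actr3 KO, 10774 ± 1004 for dKO and 9549 ± 867 for ciliobrevin D. Both fell in Actr3 KO, with log2 fold changes of -0.56 ± 0.07 (SE, limma adjusted p = 1.57e-07) and -0.66 ± 0.07 (SE, adjusted p = 8.95e-08), and neither was called in the other comparisons with Actr3 KO, with -0.14 and 0.07 in dKO and 0.06 and -0.10 with ciliobrevin D. Both lie on chromosome 3, whose tested genes had a median of -0.39 in dKO against Actr3 KO. With chromosome medians removed, Pmvk was higher in dKO, at 0.25 (adjusted p = 0.00232), and so was Fdps, at 0.46 (adjusted p = 1.8e-05). Without dKO replicate 1, Pmvk was lower instead, at -0.18 (adjusted p = 0.0405), as after quantile normalization, at -0.17 (adjusted p = 0.0338). With ciliobrevin D, Fdps was lower after quantile normalization, at -0.30 (adjusted p = 0.000953). Fdps shares 26.7% of its exon bases with an overlapping predicted gene on the same strand, so its reads could have been split in counting.

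Squalene synthesis and its closure to lanosterol take 3 enzymes, and they did not move as a block. Fdft1, squalene synthase, was at 4897, 4398 and 4664 normalized counts in the control libraries, 2687, 3147 and 2730.4 in Actr3 KO, 4784, 4681 and 4202 in dKO and 2622, 2884 and 2382 under ciliobrevin D. Control and dKO overlapped, and Actr3 KO overlapped with ciliobrevin D. Its log2 fold change was -0.71 ± 0.07 (SE, limma adjusted p = 1.95e-08) in Actr3 KO against control and 0.68 ± 0.07 (SE, adjusted p = 4.33e-08) in dKO against Actr3 KO, and with ciliobrevin D it was -0.12 ± 0.07 (SE, adjusted p = 0.151). The last passed the threshold without ciliobrevin D replicate 2, at -0.19 (adjusted p = 0.0384), and after quantile normalization, at -0.25 (adjusted p = 0.00407). Fdft1 shares 18.3% of its exon bases with Ctsb, which lies on the opposite strand, and without strand in the counting the reads there cannot be told apart.

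Sqle, the squalene epoxidase and a rate-limiting step after the mevalonate stage, was at 17036, 16149 and 16264 normalized counts in the control libraries, 12989, 13840.1 and 14832 in Actr3 KO, 9310.5, 9797 and 8877 in dKO and 9698, 9986 and 9124 under ciliobrevin D. Unlike Fdft1 it had a single order, with control above Actr3 KO and both above dKO and ciliobrevin D, which overlapped. The differences were -0.25 ± 0.06 (SE, limma adjusted p = 0.000803) in Actr3 KO, -0.57 ± 0.06 (SE, adjusted p = 2.54e-08) in dKO against Actr3 KO and -0.53 ± 0.06 (SE, adjusted p = 8.67e-08) with ciliobrevin D. The first was -0.09 (adjusted p = 0.115) after quantile normalization. Against control, Sqle stood at -0.82 ± 0.06 (SE, adjusted p = 8.9e-11) in dKO.

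Lss, which closes epoxysqualene to lanosterol, was at 5567, 4435 and 5008 normalized counts in the control libraries, 3719, 3811 and 3866 in Actr3 KO, 5807, 5392 and 4989.7 in dKO and 3291, 3456 and 2995 under ciliobrevin D. Control and dKO overlapped, and every Actr3 KO library was above every ciliobrevin D library. The differences were -0.39 ± 0.07 (SE, limma adjusted p = 5.67e-05) in Actr3 KO, 0.50 ± 0.07 (SE, adjusted p = 2.73e-06) in dKO against Actr3 KO and -0.23 ± 0.07 (SE, adjusted p = 0.00846) with ciliobrevin D, the last at -0.17 (adjusted p = 0.0504) without ciliobrevin D replicate 3. Lss lies on chromosome 10, whose median in dKO against Actr3 KO was 0.40, and with chromosome medians removed the dKO difference was 0.07 (adjusted p = 0.413). Against control, Lss in dKO was at 0.11 ± 0.07 (SE, adjusted p = 0.173), and with chromosome medians removed it was lower, at -0.28 (adjusted p = 0.00188).

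The 8 enzymes that turn lanosterol into cholesterol fell in Actr3 KO with a median of -0.65. Cyp51, which removes the first methyl group of lanosterol, was at 18351, 17807 and 18053 normalized counts in the control libraries, 6988, 8130.1 and 8099 in Actr3 KO, 11273, 11438 and 9823 in dKO and 8922, 10369.6 and 9472 under ciliobrevin D. The groups ran from control through dKO and ciliobrevin D, which overlapped, down to Actr3 KO. Its log2 fold change was -1.23 ± 0.07 (SE, limma adjusted p = 2.42e-12) in Actr3 KO, 0.49 ± 0.07 (SE, adjusted p = 2.85e-06) in dKO against Actr3 KO and 0.31 ± 0.07 (SE, adjusted p = 0.000557) with ciliobrevin D against Actr3 KO. Cyp51 lies on chromosome 5 with Mvk and Insig1, and with chromosome medians removed the last 2 differences were 0.07 (adjusted p = 0.369) and 0.09 (adjusted p = 0.244). Quantile normalization gave 0.11 (adjusted p = 0.136) for ciliobrevin D.

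Msmo1, the oxidase that acts on the remaining methyl groups, was at 9899, 9962 and 9647 normalized counts in the control libraries, 5311, 5935 and 5679 in Actr3 KO, 5582, 5228 and 4707 in dKO and 5511, 6388 and 5822 under ciliobrevin D. The 3 edited groups overlapped and all lay below control. Its log2 fold change was -0.80 ± 0.06 (SE, limma adjusted p = 4.68e-10) in Actr3 KO, with -0.13 ± 0.06 (SE, adjusted p = 0.0873) in dKO and 0.07 ± 0.06 (SE, adjusted p = 0.383) with ciliobrevin D against Actr3 KO. The dKO difference passed the threshold without Actr3 KO replicate 1, at -0.17 (adjusted p = 0.0422), and without dKO replicate 1, at -0.18 (adjusted p = 0.024). Quantile normalization turned the ciliobrevin D difference to -0.14 (adjusted p = 0.0479).

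Hsd17b7, the keto-reductase of the same demethylation cycle, was at 2274, 2183 and 2213 normalized counts in the control libraries, 1419, 1547 and 1517 in Actr3 KO, 1149, 1087 and 933 in dKO and 1243, 1299.9 and 1155 under ciliobrevin D. Here the dKO libraries were the lowest and none of the 4 groups overlapped. The differences were -0.57 ± 0.07 (SE, limma adjusted p = 2.25e-07) in Actr3 KO, -0.50 ± 0.07 (SE, adjusted p = 1.51e-06) in dKO against Actr3 KO and -0.28 ± 0.07 (SE, adjusted p = 0.00133) with ciliobrevin D. Hsd17b7 lies on chromosome 1, whose tested genes had a median of -0.21 in dKO against Actr3 KO. With chromosome medians removed, its dKO difference was -0.28 (adjusted p = 0.00142). Against control, Hsd17b7 in dKO stood at -1.08 ± 0.07 (SE, adjusted p = 1.44e-11), the lowest member in that comparison. Nsdhl, the dehydrogenase that acts just before it, moved otherwise, with means of 1589 ± 69.1 for control, 964 ± 86.2 for Actr3 KO, 1259 ± 98.9 for dKO and 777 ± 98.3 for ciliobrevin D. Its log2 fold changes were -0.72 ± 0.08 (SE, adjusted p = 1.55e-07) in Actr3 KO, 0.39 ± 0.08 (SE, adjusted p = 0.000427) in dKO against Actr3 KO and -0.31 ± 0.08 (SE, adjusted p = 0.00267) with ciliobrevin D.

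Ebp, which shifts the ring double bond toward its final place, was at 1011, 1089 and 1072 normalized counts in the control libraries, 862, 819 and 843 in Actr3 KO, 918, 999 and 872 in dKO and 622, 590.1 and 545 under ciliobrevin D. The ciliobrevin D libraries were all below the others. The differences were -0.33 ± 0.07 (SE, limma adjusted p = 0.000215) in Actr3 KO, which with chromosome medians removed was -0.15 (adjusted p = 0.0521), and -0.52 ± 0.07 (SE, adjusted p = 8.3e-07) with ciliobrevin D against Actr3 KO. In dKO against Actr3 KO it was 0.14 ± 0.07 (SE, adjusted p = 0.0727), and this passed without dKO replicate 3, at 0.19 (adjusted p = 0.04), after TMM rescaling, at 0.16 (adjusted p = 0.041), and with edgeR, at 0.17 (adjusted p = 0.0304).

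Dhcr7, the reductase of the last step of one branch, was at 3325, 3059 and 3166 normalized counts in the control libraries, 2538, 2827 and 2876 in Actr3 KO, 2185, 2368 and 2209 in dKO and 1919, 1999 and 1782 under ciliobrevin D. Its groups ran from control through Actr3 KO and dKO to ciliobrevin D without overlap. The differences were -0.21 ± 0.06 (SE, limma adjusted p = 0.00333) in Actr3 KO, -0.28 ± 0.06 (SE, adjusted p = 0.00028) in dKO against Actr3 KO and -0.53 ± 0.06 (SE, adjusted p = 1.09e-07) with ciliobrevin D, and quantile normalization gave -0.12 (adjusted p = 0.0793) for the first. Tm7sf2, a sterol reductase that follows Cyp51, had means of 1103 ± 112 for control, 630.2 ± 60.1 for Actr3 KO, 688 ± 33.5 for dKO and 426 ± 19.3 for ciliobrevin D. It fell in Actr3 KO, at -0.81 ± 0.08 (SE, adjusted p = 2.05e-08), and further with ciliobrevin D, at -0.56 ± 0.08 (SE, adjusted p = 4.33e-06) against Actr3 KO and -1.37 against control, the lowest member in that comparison. In dKO it was 0.13 from Actr3 KO, and 0.21 (adjusted p = 0.044) without Actr3 KO replicate 2. Tm7sf2 shares 12.1% of its exon bases with Vps51 on the same strand.

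Sc5d, the desaturase that acts just before Dhcr7, had means of 3288 ± 135 for control, 2252 ± 19.5 for Actr3 KO, 2029 ± 94.7 for dKO and 2437 ± 62.6 for ciliobrevin D. Its log2 fold change was -0.54 ± 0.05 (SE, limma adjusted p = 6.34e-09) in Actr3 KO and -0.15 ± 0.05 (SE, adjusted p = 0.0135) in dKO against Actr3 KO. The second call was lost without dKO replicate 3, at -0.11 (adjusted p = 0.099), and with chromosome medians removed, at -0.11 (adjusted p = 0.0572). With ciliobrevin D it was 0.11 ± 0.05 (SE, adjusted p = 0.059) from Actr3 KO, and with chromosome medians removed it was higher, at 0.17 (adjusted p = 0.00686).

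**Figure D3:**
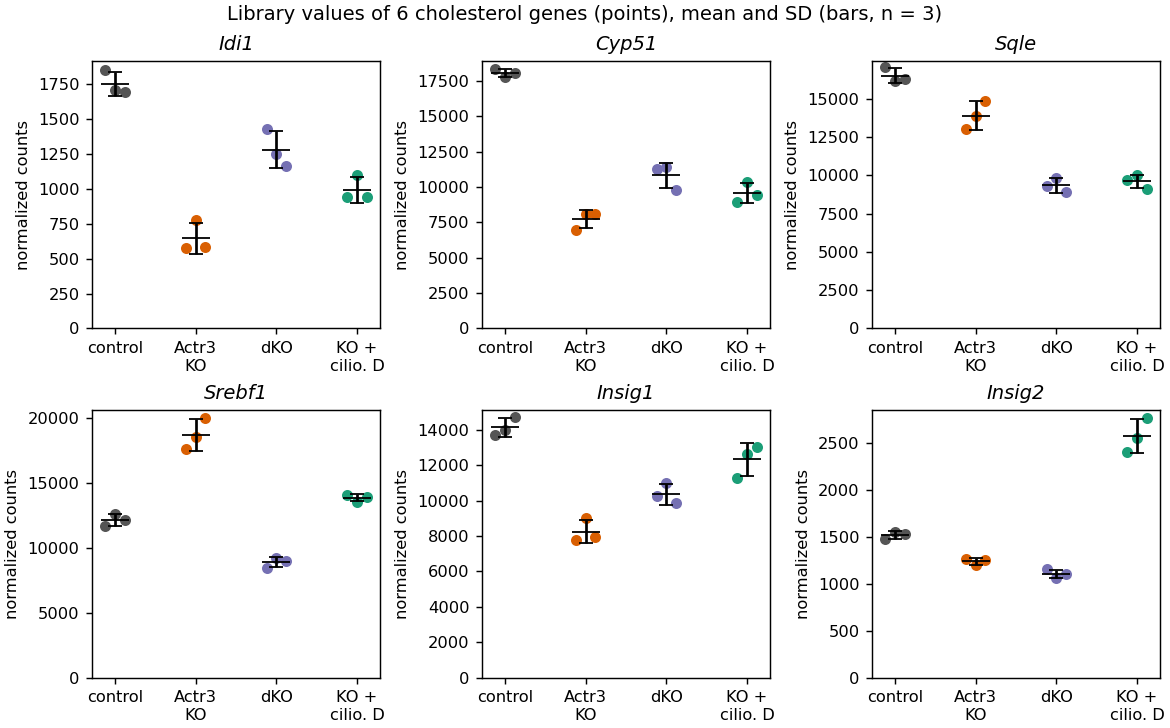
Normalized counts of Idi1, Cyp51, Sqle, Srebf1, Insig1 and Insig2 in each library (points) with the group mean and SD (bars, n = 3), with control, Actr3 KO, dKO and Actr3 KO plus ciliobrevin D from left to right and axes that start at 0. Idi1 and Cyp51 are lowest in Actr3 KO, Srebf1 is highest there, and Insig2 is highest with ciliobrevin D, where its libraries lie between 2404 and 2767.

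Of the 5 genes of the sterol-sensing system, 2 were higher, 2 lower and 1 not called in Actr3 KO against control. Srebf1, which encodes the SREBP-1 factors and drives mainly fatty acid synthesis, was at 11649.8, 12605 and 12153 normalized counts in the control libraries, 17559, 18500.1 and 19992 in Actr3 KO, 8463, 9208 and 8973 in dKO and 14075, 13521 and 13921 under ciliobrevin D. The 4 groups did not overlap, with Actr3 KO highest and dKO lowest. Its log2 fold change was 0.62 ± 0.06 (SE, limma adjusted p = 4.5e-09) in Actr3 KO against control, -1.07 ± 0.06 (SE, adjusted p = 1.14e-12) in dKO against Actr3 KO, which was the lowest of the members there, and -0.43 ± 0.06 (SE, adjusted p = 1.15e-06) with ciliobrevin D. Srebf1 thus rose in Actr3 KO while all 18 enzymes fell. The gene model holds the transcripts of both SREBP-1 forms, and the counts do not separate them.

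Srebf2, which encodes SREBP-2, the main activator of the cholesterol genes, was at 25744, 26444 and 25935 normalized counts in the control libraries, 25935, 29192 and 30353 in Actr3 KO, 20396, 22009 and 20579.9 in dKO and 29008, 29580.5 and 30528 under ciliobrevin D. The dKO libraries were all below the rest, while Actr3 KO overlapped with control and with ciliobrevin D. The differences were 0.13 ± 0.06 (SE, limma adjusted p = 0.0838) in Actr3 KO, -0.44 ± 0.06 (SE, adjusted p = 3.83e-06) in dKO against Actr3 KO and 0.06 ± 0.06 (SE, adjusted p = 0.399) with ciliobrevin D. The first passed the threshold without Actr3 KO replicate 1, at 0.19 (adjusted p = 0.011), after quantile normalization, at 0.21 (adjusted p = 0.00166), and with DESeq2, at 0.13 (adjusted p = 0.0331). Transcript levels of Srebf1 and Srebf2 are not a measure of the active, cleaved factors. Scap, the escort of the SREBPs, had means of 2663 ± 83.3 for control, 3004 ± 174 for Actr3 KO, 2614 ± 119 for dKO and 2580.1 ± 44.2 for ciliobrevin D, and its differences were 0.17 ± 0.05 (SE, adjusted p = 0.00729), -0.20 ± 0.05 (SE, adjusted p = 0.0026) and -0.22 ± 0.05 (SE, adjusted p = 0.00132) in the same order of comparisons, the first at 0.12 (adjusted p = 0.0569) with chromosome medians removed.

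Insig1, the retention protein that is itself an SREBP target, was at 13729, 13995 and 14759 normalized counts in the control libraries, 7799, 9000.0 and 7945 in Actr3 KO, 10239, 11009 and 9847 in dKO and 11285, 12649.7 and 13052 under ciliobrevin D. The 4 groups did not overlap, and their order was control, ciliobrevin D, dKO and Actr3 KO. The log2 fold changes were -0.78 ± 0.07 (SE, limma adjusted p = 1.05e-09) in Actr3 KO, 0.33 ± 0.07 (SE, adjusted p = 0.000152) in dKO against Actr3 KO and 0.58 ± 0.07 (SE, adjusted p = 1.19e-07) with ciliobrevin D. With chromosome medians removed, its dKO difference was -0.09 (adjusted p = 0.213), where the sign turned, and its ciliobrevin D difference was 0.36 (adjusted p = 2.88e-05). With ciliobrevin D it was still -0.20 ± 0.07 (SE, adjusted p = 0.0107) from control, a call lost without the unnumbered control library, at -0.17 (adjusted p = 0.0527), and without ciliobrevin D replicate 1, at -0.14 (adjusted p = 0.0777). Insig1 fell with its fellow members Hmgcs1 and Acat2 in Actr3 KO, the 3 genes whose promoters are printed above, by log2 differences of -0.78, -0.98 and -0.56. With ciliobrevin D against Actr3 KO the 3 had 0.58, -0.16 and -0.36, of which Insig1 was called higher and Acat2 lower.

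Insig2, the second retention protein, was at 1478, 1554 and 1535 normalized counts in the control libraries, 1266, 1198 and 1256 in Actr3 KO, 1152, 1066 and 1102 in dKO and 2404, 2557 and 2767 under ciliobrevin D. All 3 ciliobrevin D libraries were above every other library, and the remaining order was control, Actr3 KO and dKO with no overlap. With ciliobrevin D it rose by 1.05 ± 0.06 (SE, limma adjusted p = 2.09e-12) over Actr3 KO and stood 0.76 ± 0.06 (SE, adjusted p = 4.54e-10) above control, on the log2 scale. The first of these was the largest log2 fold change of any tested member in that comparison. In Actr3 KO against control it was -0.30 ± 0.06 (SE, adjusted p = 0.000132), and in dKO against Actr3 KO -0.16 ± 0.06 (SE, adjusted p = 0.0179). The last call was lost without Actr3 KO replicate 1, at -0.15 (adjusted p = 0.0611), without dKO replicate 2, at -0.14 (adjusted p = 0.0763), and changed sign with chromosome medians removed, at 0.06 (adjusted p = 0.349).

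Npc1, the lysosomal membrane protein that passes cholesterol out of late endosomes, was at 3194, 3093 and 2956 normalized counts in the control libraries, 4183, 4254 and 5053 in Actr3 KO, 2328, 2313 and 2371 in dKO and 3962, 4150.3 and 4253 under ciliobrevin D. Its pattern resembled that of Srebf1, highest in Actr3 KO and lowest in dKO, although Actr3 KO overlapped with ciliobrevin D. The differences were 0.54 ± 0.06 (SE, limma adjusted p = 1.03e-07) in Actr3 KO, -0.94 ± 0.06 (SE, adjusted p = 2.61e-11) in dKO against Actr3 KO and -0.12 ± 0.06 (SE, adjusted p = 0.0903) with ciliobrevin D. The last was called lower without Actr3 KO replicate 1, at -0.17 (adjusted p = 0.0326), after quantile normalization, at -0.31 (adjusted p = 8.38e-05), and with chromosome medians removed, at -0.17 (adjusted p = 0.0163). Npc2, its soluble partner in the lysosome, moved little, with means of 4943 ± 285 for control, 5485 ± 29.7 for Actr3 KO, 5098 ± 202 for dKO and 5565 ± 119.6 for ciliobrevin D. It was 0.15 ± 0.05 (SE, adjusted p = 0.0125) in Actr3 KO against control, which was 0.10 (adjusted p = 0.088) without control replicate 1 and 0.08 (adjusted p = 0.192) with chromosome medians removed. In dKO it was -0.11 from Actr3 KO, and -0.13 (adjusted p = 0.0495) without dKO replicate 2.

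Stard4, a cytosolic protein that carries cholesterol between membranes, was at 4503, 4191 and 4249.7 normalized counts in the control libraries, 3276, 3472 and 3214 in Actr3 KO, 3165, 2934 and 2842 in dKO and 3083, 3253 and 2942 under ciliobrevin D. All edited libraries were below control, and ciliobrevin D overlapped with both Actr3 KO and dKO. Its log2 fold change was -0.38 ± 0.06 (SE, limma adjusted p = 3.69e-06) in Actr3 KO and -0.16 ± 0.06 (SE, adjusted p = 0.0173) in dKO against Actr3 KO. The second call was lost without Actr3 KO replicate 2, at -0.12 (adjusted p = 0.0887), without dKO replicate 2, at -0.15 (adjusted p = 0.0532), and without dKO replicate 3, at -0.12 (adjusted p = 0.0988). It was -0.01 (adjusted p = 0.874) with chromosome medians removed. With ciliobrevin D, Stard4 was -0.10 ± 0.06 (SE, adjusted p = 0.109) from Actr3 KO, which passed the threshold after quantile normalization, at -0.25 (adjusted p = 0.00051), and with chromosome medians removed, at -0.16 (adjusted p = 0.0173).

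The exporters were close to silent. Abca1, which loads cholesterol onto apolipoprotein A-I, had 1, 2 and 1 reads in the control libraries, 0, 0 and 3 in Actr3 KO, 0, 0 and 2 in dKO, and 1, 1 and 0 with ciliobrevin D. That is 4, 3, 2 and 2 reads in the groups, and no difference was detectable at this depth. Abcg1, which exports sterol to lipoprotein particles, had 0, 1 and 0 reads in control, 8, 12 and 13 in Actr3 KO, 12, 9 and 11 in dKO, and 8, 2 and 7 with ciliobrevin D. Every edited library had more reads than every control library, and the edited groups overlapped with each other. The ratio to control of the normalized group reads was 37 in Actr3 KO (exact 95% interval 6.2 to 1507), 34.1 in dKO (5.7 to 1389) and 22.6 with ciliobrevin D (3.55 to 946.5). These intervals cover counting error only, and all of the levels are low beside the other members. Abcg1 passed the filter on low values only through Actr3 KO and dKO libraries, so the intervals are no separate support for a rise.

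In both further groups most tested members were lower than in control. In dKO, 19 of 27 tested members were lower and 2 higher, against 35.1% and 32.0% of all tested genes, with a median of -0.45 beside -0.01. The 2 higher were Mvd and Abcg1, and the place of Abcg1 was again given by the filter on low values. Mvd rested on single libraries, at 0.20 ± 0.08 (SE, limma adjusted p = 0.0415) and 0.12 (adjusted p = 0.239) without control replicate 3, 0.18 (adjusted p = 0.102) without dKO replicate 1 and 0.15 (adjusted p = 0.171) without dKO replicate 2, each of which left 1 higher member. Of the enzymes 13 of 18 were lower, 1 was higher and 4 were not called, these being Acat2 at 0.01, Mvk at 0.13, Fdft1 at -0.03 and Lss at 0.11. Lss was called higher without control replicate 1, at 0.19 (adjusted p = 0.0232), which left 3 higher members. Ebp was lower at -0.19 ± 0.07 (SE, adjusted p = 0.02). This call was lost without control replicate 3, the unnumbered control, dKO replicate 1 or dKO replicate 3, with adjusted p-values from 0.0521 to 0.114. It was lost too with chromosome medians removed, at -0.06 (adjusted p = 0.446), and with the replicate block, at -0.19 (adjusted p = 0.0541). Fdps was lower at -0.58 ± 0.07 (SE, adjusted p = 5.51e-07), and -0.14 (adjusted p = 0.11) with chromosome medians removed. Srebf2 was lower at -0.31 ± 0.06 (SE, adjusted p = 0.000215), and -0.07 (adjusted p = 0.281) after quantile normalization.

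With ciliobrevin D, 20 of 27 tested members were lower than in control and 6 higher, against 32.0% and 33.0% of all tested genes. All 18 enzymes were lower, as in untreated Actr3 KO, with a median of -0.82, and Tm7sf2, Hmgcs1, Mvk and Nsdhl were the furthest from control at -1.37, -1.14, -1.07 and -1.04. The 6 higher were Srebf1, Srebf2, Insig2, Npc1, Npc2 and Abcg1, and Scap was not called at -0.05. Abcg1 was in this count only because Actr3 KO and dKO libraries passed the filter on low values. Npc2 missed the threshold after quantile normalization, at 0.09 (adjusted p = 0.139), and with chromosome medians removed, at 0.06 (adjusted p = 0.353). Insig2 and Npc1 led the well-expressed ones, at 0.76 ± 0.06 (SE, limma adjusted p = 4.54e-10) and 0.42 ± 0.06 (SE, adjusted p = 4.53e-06). These comparisons share the control libraries with the first one, so their lower counts are not separate evidence.

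The comparisons of dKO and of ciliobrevin D both start from Actr3 KO, so their difference was tested directly as ciliobrevin D against dKO. There 10 of 27 tested members were higher and 13 lower, against 37.0% and 36.3% of all tested genes, and without dKO replicate 3 the higher ones numbered 6. With quantile normalization, 7 were higher and 16 lower. Of the enzymes, 13 of 18 were lower with ciliobrevin D than in dKO. The calls of Cyp51, at -0.18 (limma adjusted p = 0.0272), and Fdps, at -0.17 (adjusted p = 0.0399), rested on single libraries. Both were lost without dKO replicate 1 or 2, without ciliobrevin D replicate 1 or 3, and with no filter on low values. With chromosome medians removed, Cyp51 was at 0.02 (adjusted p = 0.799), and Pmvk, called higher at 0.19, was lower at -0.21 (adjusted p = 0.00765). The widest gaps as fitted were those of Mvk at -1.20 ± 0.09 (SE, limma adjusted p = 1.6e-10), Acat2 at -0.93 ± 0.09 (SE, adjusted p = 1.44e-08), Mvd at -0.84 ± 0.08 (SE, adjusted p = 1.04e-08), Fdft1 at -0.79 ± 0.07 (SE, adjusted p = 2.6e-09) and Lss at -0.73 ± 0.07 (SE, adjusted p = 9.09e-09). Lss lies on chromosome 10 and Mvk on chromosome 5, whose tested genes had medians of -0.391 and -0.215 in this comparison. Over the alternatives tried, the gap of Lss ran from -0.927 to -0.338 and stayed called. Of the sterol-sensing genes 4 of 5 were higher with ciliobrevin D, namely Insig2 at 1.22 ± 0.06 (SE, adjusted p = 9.11e-14), Srebf1 at 0.64 ± 0.06 (SE, adjusted p = 2.2e-09), Srebf2 at 0.50 ± 0.06 (SE, adjusted p = 4.7e-07) and Insig1 at 0.25 ± 0.07 (SE, adjusted p = 0.00193). Insig1 was 0.02 (adjusted p = 0.764) after quantile normalization. Npc1 was higher too, at 0.82 ± 0.06 (SE, adjusted p = 1.41e-10). Sqle and Stard4 were not called, at 0.04 and 0.05.

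Several of the dKO values ran along with the chromosome a gene lies on. In dKO against Actr3 KO, tested genes had a median of 0.39 for chromosome 5 and of 0.40 for chromosome 10, whereas those of chromosomes 3 and 1 were -0.39 and -0.21, where the median of all genes was -0.01. With chromosome medians removed, Cyp51, Insig1, Lss, Hmgcs1, Sc5d, Insig2 and Stard4 were no longer called, and Pmvk and Fdps were called higher. The differences of Idi1 at 0.87 (adjusted p = 7.57e-08), Fdft1 at 0.53 (adjusted p = 1.4e-06), Acat2 at 0.54 (adjusted p = 3.96e-05), Srebf1 at -1.07 (adjusted p = 1.06e-12) and Npc1 at -0.79 (adjusted p = 4.04e-10) were still called by limma. What lies behind the chromosome medians was not tested.

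**Figure D4:**
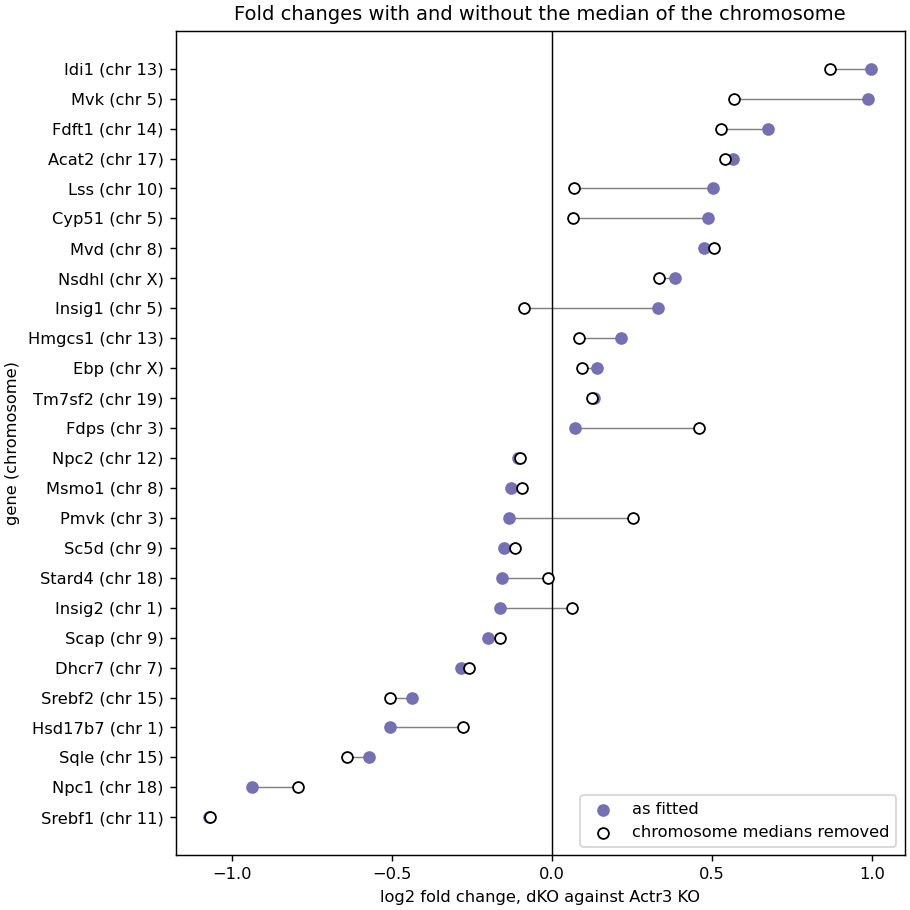
Log2 fold change of 26 cholesterol genes in dKO against Actr3 KO as fitted (filled) and with the median of each chromosome removed (open), with the chromosome of each gene in parentheses. The points of Lss, Cyp51 and Insig1 move to near 0 and those of Fdps and Pmvk move to the right, while Idi1, Srebf1 and Sqle stay on their side.

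Neighbouring pathways, taken from lists that do not hold the members, were counted in the same fit. Their values are as fitted, so the chromosome medians given above for dKO are not removed from them. Of 15 genes of fatty acid synthesis and desaturation, the arm driven by SREBP-1, 4 were higher and 10 lower in Actr3 KO against control (of all tested genes, 34.4% and 35.4%), 2 were higher and 8 lower in dKO against Actr3 KO (of all tested genes, 32.5% and 33.2%) and 2 were higher and 7 lower with ciliobrevin D (of all tested genes, 32.7% and 32.9%). Scd1, the stearoyl-CoA desaturase, went from 5869 ± 515 to 2059 ± 193 normalized counts (log2 fold change -1.51 ± 0.08 SE, adjusted p = 1.14e-12) between control and Actr3 KO, although Srebf1 rose there. Elovl6, a fatty acid elongase, went from 10545 ± 571 to 3808 ± 366 normalized counts (log2 fold change -1.47 ± 0.09 SE, adjusted p = 5.98e-12), and Me1, a source of NADPH, from 4089 ± 20.8 to 1529 ± 126 normalized counts (log2 fold change -1.42 ± 0.07 SE, adjusted p = 1.4e-13). With ciliobrevin D, Me1 was 1 of the 2 higher genes and went from 1529 ± 126 to 3753 ± 340.3 normalized counts (log2 fold change 1.29 ± 0.07 SE, adjusted p = 6.12e-13). Among the 7 lower, Gpam went from 1896 ± 120 to 1067 ± 73.6 normalized counts (log2 fold change -0.83 ± 0.06 SE, adjusted p = 3.21e-10). Fads1, also lower, was at -0.37 ± 0.06 (SE, adjusted p = 8.42e-06).

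Of 16 genes for SREBP processing, loading into transport vesicles and sterol-linked degradation, 5 were higher and 9 lower in Actr3 KO against control (of all tested genes, 34.4% and 35.4%), 7 were higher and 6 lower in dKO against Actr3 KO (of all tested genes, 32.5% and 33.2%) and 3 were higher and 9 lower with ciliobrevin D (of all tested genes, 32.7% and 32.9%). Rnf145, a sterol-responsive ubiquitin ligase, went in dKO from 7720.3 ± 366 to 4420.4 ± 71.9 normalized counts (log2 fold change -0.80 ± 0.05 SE, adjusted p = 6.78e-12), and Ube2g2, a conjugating enzyme for degradation at the endoplasmic reticulum, went the other way, from 1691 ± 88.9 to 3238 ± 202 normalized counts (log2 fold change 0.94 ± 0.06 SE, adjusted p = 1.99e-11). Mbtps1, the first protease that cleaves SREBPs, went with ciliobrevin D from 13099 ± 839 to 9550.2 ± 93.1 normalized counts (log2 fold change -0.45 ± 0.05 SE, adjusted p = 1.23e-07). Of 14 genes of the isoprenoid branches, which share farnesyl diphosphate with the sterol route, 3 were higher and 8 lower in Actr3 KO against control, 9 were higher and 2 lower in dKO against Actr3 KO and 5 were higher and 1 lower with ciliobrevin D, beside the same shares of all tested genes. Ggps1, which makes geranylgeranyl diphosphate, went from 996 ± 62.6 to 606 ± 24.1 normalized counts (log2 fold change -0.72 ± 0.07 SE, adjusted p = 4.37e-09) in Actr3 KO and from 606 ± 24.1 to 1104 ± 55.1 normalized counts (log2 fold change 0.86 ± 0.07 SE, adjusted p = 3.06e-10) with ciliobrevin D. Nus1, a subunit of the enzyme that makes dolichol chains, went in dKO from 2283 ± 59.7 to 4131 ± 82.0 normalized counts (log2 fold change 0.85 ± 0.06 SE, adjusted p = 3.3e-11). How far the dKO values of Rnf145, Ube2g2 and Nus1 go with their chromosomes was not tested.

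Of 14 LXR receptors and targets other than Abca1 and Abcg1, 8 were tested. Of these, 5 were higher and 1 lower in Actr3 KO against control (of all tested genes, 34.4% and 35.4%), 2 were higher and 3 lower in dKO against Actr3 KO (of all tested genes, 32.5% and 33.2%) and 1 was higher and 3 lower with ciliobrevin D (of all tested genes, 32.7% and 32.9%). Mylip, a ubiquitin ligase that lowers lipoprotein receptors, went from 558 ± 26.1 to 1092 ± 59.6 normalized counts (log2 fold change 0.97 ± 0.07 SE, adjusted p = 1.25e-10) in Actr3 KO, and Arl4c from 4822 ± 103 to 7579.7 ± 230.3 normalized counts (log2 fold change 0.65 ± 0.06 SE, adjusted p = 3.54e-09). Lpcat3, the 1 lower gene there, went from 4697 ± 80.1 to 3260 ± 205 normalized counts (log2 fold change -0.53 ± 0.05 SE, adjusted p = 1.17e-08). Of 21 genes of sterol transfer, lipoprotein uptake and esterification, 20 were tested. Of these, 12 were higher and 5 lower in Actr3 KO against control, 6 were higher and 10 lower in dKO against Actr3 KO and 6 were higher and 10 lower with ciliobrevin D, beside the same shares of all tested genes. Scarb2, a lysosomal membrane protein, went in Actr3 KO from 1285 ± 27.2 to 2396 ± 139.8 normalized counts (log2 fold change 0.90 ± 0.06 SE, adjusted p = 1.1e-11), and Cav1, the caveolar coat protein, from 2271 ± 30.6 to 635 ± 37.0 normalized counts (log2 fold change -1.84 ± 0.08 SE, adjusted p = 3.03e-14). Vldlr, a lipoprotein receptor, went in dKO from 13404 ± 713 to 7326 ± 361 normalized counts (log2 fold change -0.87 ± 0.06 SE, adjusted p = 5.34e-11), and Soat1, which esterifies cholesterol for storage, from 1550.5 ± 88.6 to 906 ± 28.3 normalized counts (log2 fold change -0.77 ± 0.06 SE, adjusted p = 3.48e-10).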

How the data were processed

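Poly(A) RNA of 12 libraries, 3 in each of 4 groups, was read from 1 table of 27179 genes named by Entrez ID, of which 25275 were named from the RefSeq GRCm38.p6 table. Per the submitters' processing notes, the tools were DESeq2 2.11.40.7, featureCounts 2.0.1, HISAT2 2.2.1 and fastp 0.23.2, and the builds named are GRCm38 and mm10. Options and the use of strand in counting: not given in the sources used here. The deposited values are a signal: counts divided by a size factor for each library, not corrected for length. In each column every value was a whole multiple of 1 step (100% within 0.01 reads), so whole reads were recovered, 28902562 to 38077987 per library, and the precision is that of these counts. On these reads edgeR called 4834 genes higher and 5022 lower in Actr3 KO against control, beside 4792 and 4932 with limma. Groups follow the titles. One control column has a line and replicate number that match no title, and it entered the control group without a number. No replicate pair was alike within counting noise.

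The 13939 genes that reached a value of 10 in 3 or more libraries were put on the scale log2(value + 1) and analysed by limma 3.58.1 under R 4.3.3 (trend, 12 libraries in 1 fit, two-sided), with Benjamini-Hochberg adjustment over all of them and calls under 0.05. On this scale the change of low genes is understated. Every adjusted p in the text is from this fit unless another setting is named. Values in each library are given for the 2 members of each role with the smallest adjusted p in each of the first 3 comparisons, and for other lists up to 3 called genes. The members and lists were chosen with earlier results of these data known. Promoter windows were those of RefSeq, and exon lengths and overlaps those of GENCODE vM21. The fit was tested on simulated data. The alternatives tried were DESeq2 1.42.0 and edgeR 4.0.16 on the recovered reads, a pseudocount of 0.5 or 5, a filter on the mean (50) or none, TMM and quantile scaling, only the 2 groups compared, a replicate block, chromosome medians removed, and leaving out each library.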

Additional observations from a re-analysis of the deposited data

How the results depend on the processing

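The members gave 158 fold changes, of which 132 were called, and 2681 values under the alternatives. Of these, 2548 kept direction and side of the threshold, 74 lost the call, 27 gained one and 32 changed sign, 7 of them in called results. TMM, quantile normalization, edgeR and DESeq2 moved the median of all genes by less than 0.1 on the log2 scale, and the other settings were not compared in this way. In Actr3 KO against control the members called higher numbered 5, and 3 with chromosome medians removed. In dKO against control they numbered 2, and 1 with no filter, a mean of at least 50, the replicate block or chromosome medians removed, 4 with quantile normalization and 1 to 3 without each library, with 3 without control replicate 1. In ciliobrevin D against dKO they numbered 10, and 6 to 10 without each library. Same-numbered libraries did not deviate together (15 pairs, correlations from -0.04 to 0.06, none over 0.1), so no pairing by number was visible. With so few libraries in a group these correlations cannot exclude a pairing. The replicate block was fitted on the 11 numbered libraries.

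With chromosome medians removed, the sign changed for Pmvk at 0.25, Insig1 at -0.088 and Insig2 at 0.063 in dKO against Actr3 KO, Npc2 at -0.021 in ciliobrevin D against Actr3 KO, Acat2 at -0.14, Mvk at -0.039, Lss at -0.28 and Npc2 at -0.024 in dKO against control, Pmvk at -0.21, Cyp51 at 0.019 and Hsd17b7 at -0.035 in ciliobrevin D against dKO. With quantile normalization, the sign changed for Abcg1 at 0.27 in dKO against Actr3 KO, Msmo1 at -0.14, Srebf2 at -0.054 and Npc2 at -0.20 in ciliobrevin D against Actr3 KO, Fdft1 at 0.11 and Scap at 0.057 in dKO against control, Msmo1 at -0.034 and Npc2 at -0.11 in ciliobrevin D against dKO. With the replicate block, the sign changed for Acat2 at -0.087 in dKO against control. Without single libraries, values ran on both sides of 0 for Abcg1 from -0.29 to 0.029 in dKO against Actr3 KO, Srebf2 from -0.0033 to 0.11 in ciliobrevin D against Actr3 KO, Acat2 from -0.050 to 0.11 in dKO against control, Fdft1 from -0.071 to 0.026 in dKO against control, Scap from -0.049 to 0.011 in dKO against control, Npc2 from -0.0034 to 0.075 in dKO against control. None of these was called with all libraries. The causes were not tested.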
